A study of Danio rerio with 6 samples.

Results

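Transcripts of the maternal transcription factors and regulators that prepare zygotic genome activation were examined in zebrafish zygotes. They were chosen by name and not by a cut on their values, but with earlier results of these data known. The 8 names nanog, pou5f1, pou5f3, sox19b, eomesa, foxh1, mxtx2 and ybx1 gave 7 genes of the 21051 in the table, because pou5f1 and pou5f3 are the old and the new name of 1 gene, listed as pou5f1. RNA that came down with Tdrd6a in an immunoprecipitation (IP) from zygotes gave 3 libraries, and these were set against 3 libraries of input RNA from zygotes. Tdrd6a has Tudor domains and belongs to the germ plasm, the egg material that primordial germ cells inherit. Each library is labelled as zygotes, whereas the design text of the whole series speaks of ovary tissue beside the precipitates; the library labels were followed here, and whether any input came from ovary was not tested. The labels name no genotype, strain, exact stage or antibody for either group, and do not say whether zygotes were pooled or which clutches they came from. The p-values therefore refer to the spread among these 6 libraries, part or all of which may be technical. A mock or unrelated-antibody precipitate was not analysed here, so a difference from input is not a difference from background binding.

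The zebrafish embryo is at first transcriptionally silent and lives on RNA and protein laid down in the egg. Nanog, Pou5f3 and the SoxB1 factor Sox19b are translated from maternal RNA and open chromatin at the first genes to be switched on. FoxH1, a forkhead partner of Smad2 in Nodal signalling, and the T-box factor Eomesa act beside them on mesoderm and endoderm genes. Mxtx2 is a homeobox factor of the yolk syncytial layer that acts downstream of Nanog, and Ybx1 is a Y-box protein that binds maternal RNAs, among them that of the Nodal ligand Squint (ndr1), and holds back their translation.

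Values are normalized counts, that is reads per gene divided by 1 size factor per library. The IP libraries held 4031863 to 22466764 reads and the input libraries 10481205 to 19804774. IP replicate 2 was the shallowest library, and 1 read there was worth 3.76 normalized counts, against 0.682 to 1.21 in the other libraries. Of 12 egg transcripts listed as a check 11 had reads, but some had few. In input zar1 had 6.1 to 101.4 normalized counts and zp2 had 22.5 to 30.9. By the test given below, 2 of the 11 tested were higher in IP, gdf9 (4.33-fold) and slbp2 (15.5-fold). The other 9 were not called, and 4.46% of all genes tested were called higher. Of 22 early zygotic genes 14 stayed under the abundance minimum of a mean normalized count of 10. Of 9 markers of ovarian follicle cells 6 had reads, and cyp19a1a, inha and lhcgr had none in any library. Of those with reads, foxl2 had only 4 in IP and 1 in input, and star had 4 and 0. The summed level of the 9 was 3681 to 5439 normalized counts in IP and 2495 to 4099 in input, most of it from cyp11a1. Whether the cyp11a1 reads came from follicle cells or from the zygotes was not tested. The marker cyp17a1 had 114, 75.2 and 806 in IP replicates 1, 2 and 3, against 72.9, 134.5 and 858 in input replicates 1, 2 and 3. The marker hsd3b1 had 80.8 to 368.5 in IP and 166.4 to 257.3 in input, and gsdf had 13.2 to 26.3 and 8.8 to 38.1. Every value is relative to the other RNA of its library and gives no copy number per zygote. Values are also not resolved by zygote, so fewer copies of a transcript per zygote and fewer zygotes that hold it cannot be told apart.

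The 6 measurable factors did not move as 1 group. In the Tdrd6a IP the eomesa transcript rose 3.89-fold over input and the foxh1 transcript fell to 0.431 of input. The pou5f1 and ybx1 transcripts had estimates of 0.487 and 0.547 of input without passing the test, those of nanog and sox19b lay close to input, and mxtx2 was barely detected. The call rule was a limma adjusted p under 0.05, adjusted over all 13265 genes tested. It called 6.32% of all genes, with 4.46% on the higher and 1.86% on the lower side of IP. These were 838 genes, and 1392 were called with the replicate number as a block. Of the 6 factors 1 was higher, 1 lower and 4 were not called. The median log2 fold change of the 6 was -0.50, against -0.01 for all genes tested.

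**Figure D1:**
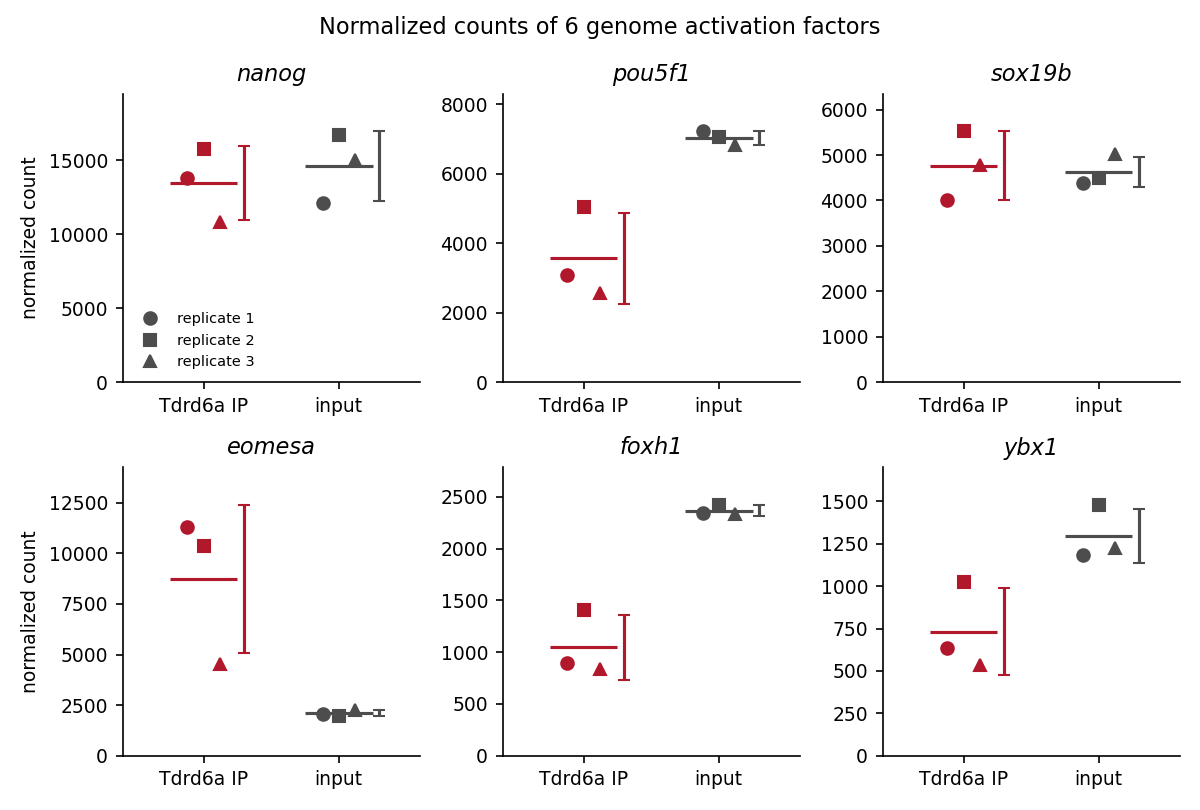
Normalized counts (vertical axes, starting at 0) of the 6 measurable factors in Tdrd6a IP (left, red) and input (right, grey); each point is 1 library, its shape the replicate number, the horizontal line the mean and the bar 1 SD over 3 libraries. The IP libraries of eomesa lie above all input libraries (4551 to 11314 against 1952 to 2243), those of pou5f1, foxh1 and ybx1 lie below, and nanog and sox19b overlap.

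Of the factors that open chromatin, the nanog transcript (ENSDARG00000075113) had 13829, 15769 and 10832 normalized counts in IP replicates 1, 2 and 3, against 12081, 16723 and 15034 in input replicates 1, 2 and 3. The groups overlapped, with the lowest value in IP replicate 3 and the highest in input replicate 2. The log2 fold change was -0.12 ± 0.29 (SE, limma adjusted p = 0.863), with a 95% interval of 0.594 to 1.42 times input. Of the 13265 genes tested, 43.6% had a lower log2 fold change, so nanog stood near the middle of the transcriptome.

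The sox19b transcript (ENSDARG00000040266), which encodes the main maternal SoxB1 factor, was at 4002, 5523 and 4772 normalized counts in IP replicates 1, 2 and 3. Input replicates 1, 2 and 3 had 4379, 4498 and 5013. Both the lowest and the highest value came from IP libraries, and the input libraries lay between them. Its log2 fold change was 0.03 ± 0.26 (SE, limma adjusted p = 0.966), with a 95% interval of 0.690 to 1.51 times input. No direction can be given for sox19b, since its estimate was -0.16 when libraries were scaled by their size only and -0.018 with TMM scaling. The adjusted p missed the threshold for nanog and sox19b in all 16 alternative settings, which does not show that IP and input were equal.

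The pou5f1 transcript (ENSDARG00000044774), of the POU factor related to mammalian OCT4, had 3086, 5049 and 2563 normalized counts in IP replicates 1, 2 and 3. Input replicates 1, 2 and 3 had 7215, 7046 and 6825. All IP libraries were below all input libraries, with IP replicate 2 nearest to input, and the input libraries were close together (3566 ± 1311 in IP and 7029 ± 195 in input, SD, n = 3 each). Groups that do not overlap in this direction were found for 12.9% of all genes tested. The log2 fold change was -1.04 ± 0.30 (SE), a level of 0.487 of input with a 95% interval of 0.308 to 0.769, and it was not called (limma adjusted p = 0.0659). Without IP replicate 2 it was -1.32 with an adjusted p of 0.0025, and it was also called with library size scaling (adjusted p = 0.0211), with DESeq2 (0.0177) and with voom (0.0491). In that order, these settings called 550, 381, 571 and 323 of all genes lower, against 247 in the reported fit. Library size scaling moved the median of all genes by -0.18 on the log2 scale, and pou5f1 was then at -1.23.

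Among the factors of mesoderm and endoderm, the eomesa transcript (ENSDARG00000006640) was the 1 that rose. It had 11314, 10377 and 4551 normalized counts in IP replicates 1, 2 and 3, against 2070, 1952 and 2243 in input replicates 1, 2 and 3. Every IP library was above every input library, which held for 14.6% of all genes tested, and the spread between IP libraries was far wider than that between input libraries (8747 ± 3664 in IP and 2088 ± 146 in input, SD, n = 3 each). The log2 fold change was 1.96 ± 0.35 (SE, limma adjusted p = 0.0101), or 3.89-fold with a 95% interval of 2.27 to 6.65, which ranked 373 from the highest among 13265 genes.

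The enrichment of eomesa differed between the precipitates. With each IP library set against the input of the same replicate number, it was 5.46-fold, 5.31-fold and 2.03-fold in replicates 1, 2 and 3. The 11 germ plasm transcripts of a list that holds nanos3, dazl, dnd and vasa had a median of 42.3-fold, 102-fold and 17.3-fold over the input mean in the same IP replicates. IP replicate 3 was thus the lowest for eomesa and for the germ plasm list, while IP replicate 2 was highest for the list and not for eomesa. The lowest log2 fold change in that list was 3.76, above that of eomesa. The call of eomesa was lost when any 1 input library was left out, with adjusted p of 0.0693, 0.0622 and 0.0591 without input replicates 1, 2 and 3, while the estimates stayed between 1.91 and 2.01. It held with IP replicate 1, 2 or 3 left out (adjusted p = 0.0373, 0.0041 and 0.00021), where the log2 fold change was 1.72, 1.78 and 2.38.

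The foxh1 transcript (ENSDARG00000055630) went the other way. It had 899, 1410 and 835 normalized counts in IP replicates 1, 2 and 3, against 2346, 2426 and 2334 in input replicates 1, 2 and 3. All IP libraries were below all input libraries, again with IP replicate 2 nearest to input (1048 ± 315 in IP and 2369 ± 50.0 in input, SD, n = 3 each). Such a separation was found for 12.9% of all genes tested. Counting error was small beside these gaps, since the shallowest IP library still held 375 foxh1 reads, with an exact Poisson 95% interval of 1271 to 1560 normalized counts. The log2 fold change was -1.21 ± 0.27 (SE, limma adjusted p = 0.0264), and it ranked 676 from the lowest. In pairs of equal replicate number the IP value was 0.384, 0.582 and 0.359 of input in replicates 1, 2 and 3.

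The call of foxh1 was lost when some libraries were left out. Its adjusted p was 0.115, 0.113 and 0.113 with input replicate 1, 2 or 3 left out. With IP replicate 1 or 3 left out it was 0.0833 and 0.0593. Without IP replicate 2 it was 0.00123, with a log2 fold change of -1.45. The call was also missed when all genes with at least 1 read were tested (adjusted p = 0.0548). Over the 16 alternatives the estimate stayed between -1.45 and -1.07.

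The mxtx2 transcript (ENSDARG00000015906) had 0 reads in every IP library and in input replicates 1 and 2, and 4 reads in input replicate 3, a normalized count of 2.7. A count of 0 allows up to 3 reads, or normalized counts of 2.08 and 3.62 in IP replicates 1 and 3, 3.36 and 2.21 in input replicates 1 and 2, and more in the shallower IP replicate 2. Such counts did not reach the abundance minimum, and a difference between IP and input was not detectable at this depth. These intervals and limits cover counting error only.

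The ybx1 transcript (ENSDARG00000004757) had 637, 1023 and 536 normalized counts in IP replicates 1, 2 and 3, against 1185, 1481 and 1224 in input replicates 1, 2 and 3. The groups did not overlap, which in this direction held for 12.9% of all genes tested. Replicate 2 was the highest library of both groups. The log2 fold change was -0.87 ± 0.30 (SE), a level of 0.547 of input with a 95% interval of 0.347 to 0.863, and it was not called (limma adjusted p = 0.114). Without IP replicate 2 the estimate was -1.14 with an adjusted p of 0.00864. The ybx1 transcript was called in that setting alone of the 16. That setting called 550 of 13222 genes lower, against 247 of 13265 in the reported fit.

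**Figure D2:**
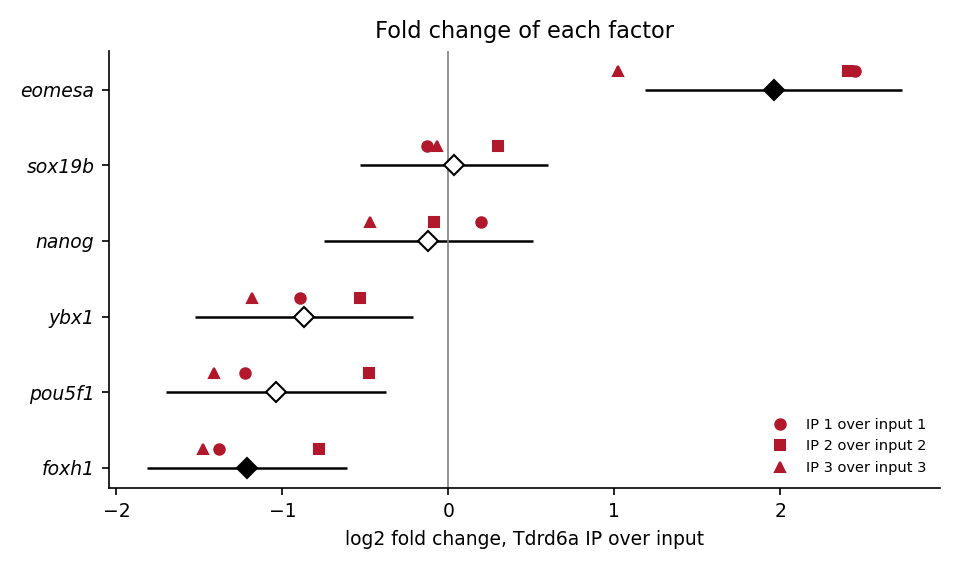
Log2 fold change of Tdrd6a IP over input (horizontal axis) for each factor; diamonds are the limma estimates with 95% intervals, filled where the gene was called, and red points are IP over input within each replicate number. The estimates run from -1.21 for foxh1 to 1.96 for eomesa, and for foxh1, pou5f1 and ybx1 replicate 2 lies nearest to 0.

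**Figure D3:**
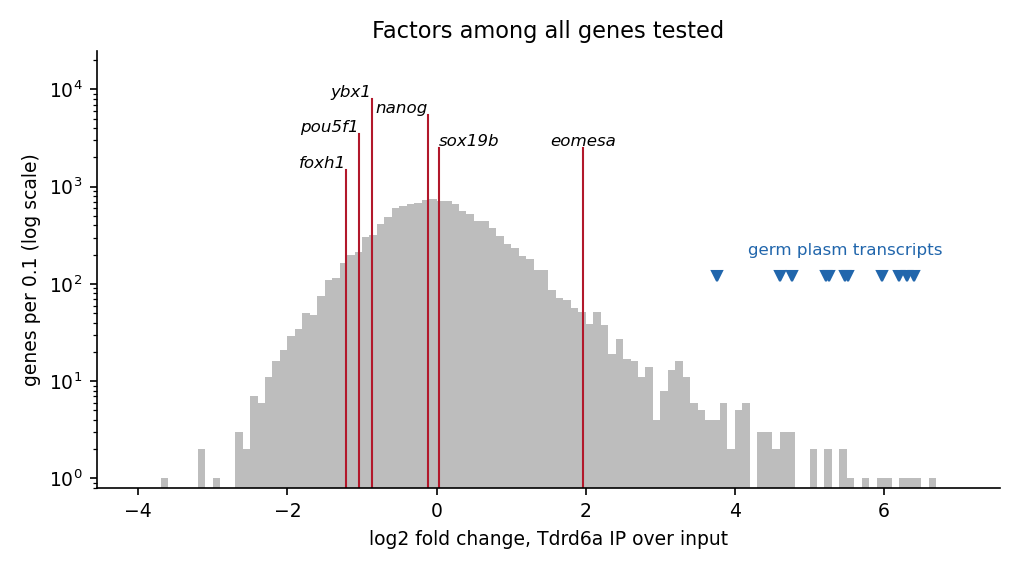
Number of genes per 0.1 of log2 fold change (vertical axis, log scale) over the 13265 genes tested, with red lines at the 6 factors and blue triangles at 11 germ plasm transcripts, whose height has no meaning. The nanog and sox19b lines stand at the centre, eomesa at 1.96 stands on the upper shoulder, and all germ plasm transcripts lie at 3.76 or above.

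Ratios of reads between 2 factors in the same library do not depend on how libraries are scaled. They are not corrected for transcript length, so they say how a ratio changed between IP and input and not which transcript was more abundant. All 15 ratios between the 6 factors were compared with exact permutation tests, two-sided. With 3 libraries against 3 the smallest p they can give is 0.1, or 0.125 here after Benjamini-Hochberg adjustment over the 15, so none could pass 0.05. The IP and input groups were separate for 12 of the 15 ratios, so separation of a named pair was common. The share among ratios of other genes was not computed, so whether 12 of 15 is many cannot be said. The 15 ratios are built from 6 genes and are not independent of each other.

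The widest change was that of eomesa to foxh1. There were 12.6, 7.36 and 5.45 eomesa reads per foxh1 read in IP replicates 1, 2 and 3, against 0.882, 0.805 and 0.961 in input replicates 1, 2 and 3. This is a 9.04-fold change of the ratio (exact permutation p = 0.1, adjusted 0.125), with every IP library above every input library. Among the factors eomesa had the highest estimate and foxh1 the lowest, each with groups that did not overlap. The size and separation of this ratio follow from that and are no separate evidence. The ratios of eomesa to ybx1 and of pou5f1 to eomesa changed by 7.13-fold and to 0.125 of input, each with separate groups. That separation too was fixed by the values of the single genes.

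Within the chromatin-opening set, the ratio of nanog to pou5f1 was higher in the IP libraries. There were 4.48, 3.12 and 4.23 nanog reads per pou5f1 read in IP replicates 1, 2 and 3, against 1.67, 2.37 and 2.2 in input replicates 1, 2 and 3. The ratio was 1.89-fold higher in IP, and no IP library overlapped input (exact permutation p = 0.1, adjusted 0.125). The ratio of pou5f1 to sox19b was 0.476 of that in input, also with separate groups. Both ratios restate gaps between the estimates given above, and pou5f1 itself was not called. By contrast the ratio of nanog to sox19b overlapped, with 3.46, 2.86 and 2.27 in IP replicates 1, 2 and 3, against 2.76, 3.72 and 3.0 in input replicates 1, 2 and 3 (0.900 of input, exact permutation p = 0.5, adjusted 0.5).

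The 3 transcripts with lower estimates, pou5f1, foxh1 and ybx1, were grouped by those estimates, which fixes that the ratios among them changed little, so these ratios are given as a description with no test. There were 4.85, 4.94 and 4.78 pou5f1 reads per ybx1 read in IP replicates 1, 2 and 3, against 6.09, 4.76 and 5.58 in input replicates 1, 2 and 3. For pou5f1 to foxh1 the ratio was 3.43, 3.58 and 3.07 in IP replicates 1, 2 and 3, against 3.08, 2.90 and 2.92 in input replicates 1, 2 and 3. Both ratios overlapped between the groups, the second of them only through IP replicate 3 and input replicate 1. The ratio of foxh1 to ybx1 was 1.41, 1.38 and 1.56 in IP replicates 1, 2 and 3, against 1.98, 1.64 and 1.91 in input replicates 1, 2 and 3, with every IP library below every input library (0.789 of input).

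**Figure D4:**
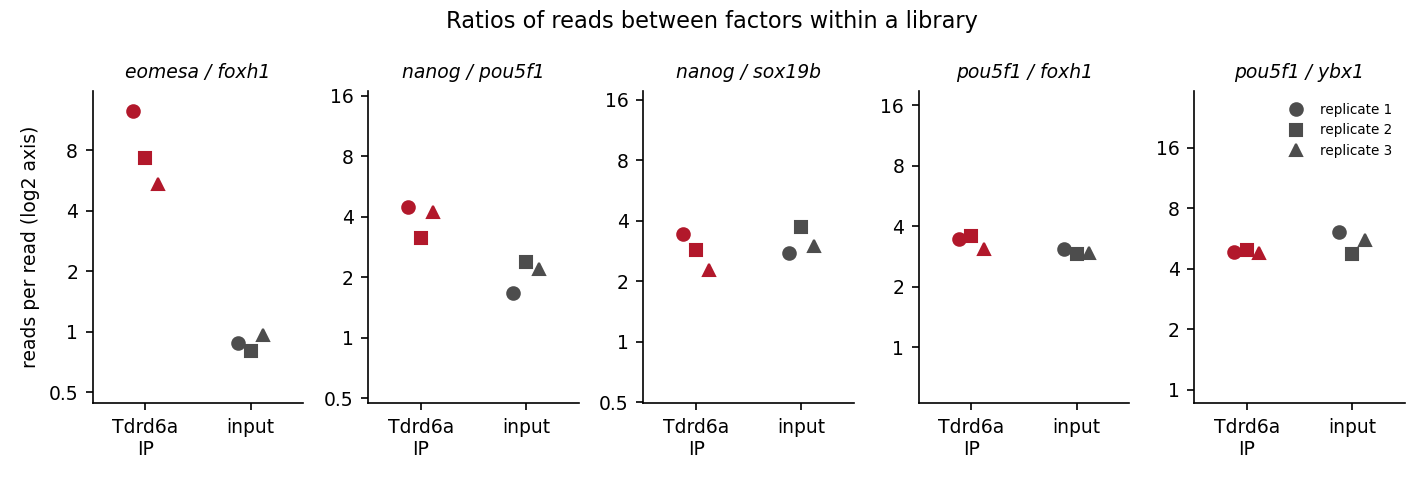
Reads of 1 factor per read of another within each library (vertical axes, log2 scale, each of the same width) in Tdrd6a IP (left, red) and input (right, grey); shapes give the replicate number. The eomesa to foxh1 ratio is 5.45 to 12.6 in IP and 0.805 to 0.961 in input, the nanog to pou5f1 ratio is separate by less, and the other 3 ratios shown overlap. Of all 15 ratios 12 were separate between the groups.

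Patterns over all 6 libraries were also compared, by the root mean square distance between log2 profiles, each taken relative to its input mean. To pou5f1, foxh1 was at a distance of 0.143 and ranked 14 among the 13264 other genes tested, and ybx1 was at 0.159 and ranked 22. Seen from foxh1, pou5f1 ranked 9, and seen from ybx1 it ranked 25. The pair of foxh1 and ybx1 was farther apart, at 0.262, with ybx1 at rank 119 from foxh1 and foxh1 at rank 206 from ybx1. The distance between nanog and sox19b was 0.242, shorter than that of foxh1 and ybx1, and sox19b ranked 439 from nanog. The distance includes the shift from input to IP, by which pou5f1, foxh1 and ybx1 were grouped, so that grouping fixes their nearness in part. These ranks are descriptions over 6 libraries that share their preparation.

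The nearest genes by name, among 7455 with a mean of at least 50 reads, were as follows. For eomesa they were anln (distance 0.135), which encodes the cytokinesis scaffold anillin, and tm9sf3 (0.144), both called higher in IP at log2 fold changes of 2.1 and 2.05. For foxh1 they were mif (0.0812) and anp32b (0.126), of which anp32b was called lower (-1.11, limma adjusted p = 0.03) and mif was not (-1.26, adjusted p = 0.0549). The nearest genes to pou5f1 were hnrnpa0l (0.0712) and pdlim1 (0.0764), and those to ybx1 were blcap (0.0591) and fam173b (0.0954). For nanog they were twistnb (0.0655) and psmb1 (0.0674), a proteasome subunit gene, and for sox19b they were tox4 (0.0473) and cog1 (0.0573), a gene of a Golgi tethering complex. None of these 8 genes was called. Because the distance includes the shift from input to IP, a neighbour shares the fold change of its factor by the way it was picked.

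Genes that act with these factors were read in 4 lists. In a list for the Nodal pathway, whose signal reaches DNA through FoxH1 and Smad2, 13 genes were in the table and 12 were tested. The receptor name acvr2ba matched both acvr2b and actr2b through RefSeq synonyms, and both were kept. Whether actr2b is a receptor gene was not checked. Limma called 0 of the 12, and 2 had an unadjusted p under 0.05, as did 2814 of all 13265 genes tested. Both edgeR and DESeq2 called 0 of the 12. The median log2 fold change of the 12 was 0.41, with 9 estimates above 0 and 3 below, actr2b (-0.15) among the latter. Of all 13265 genes tested, 6577 were above 0 and 6688 below. The receptor gene acvr1b had 5132, 4297 and 3283 normalized counts in IP replicates 1, 2 and 3, against 2069, 2650 and 2569 in input replicates 1, 2 and 3. The groups did not overlap, which with IP above input held for 14.6% of all genes tested. The acvr1b gene was not called (0.79 ± 0.27, SE, adjusted p = 0.116). The common Smad gene smad4 was at 0.73 ± 0.31 (adjusted p = 0.208), and smad2, the partner of FoxH1, was at 0.41 ± 0.27 (adjusted p = 0.435); smad2 was singled out with its values known. The transcript ndr1, whose translation Ybx1 holds back, had 6.9, 18.8 and 60.3 normalized counts in IP replicates 1, 2 and 3, against 105, 5.1 and 123 in input replicates 1, 2 and 3, and was singled out likewise. Its lowest value was an input library, and it was not called (-0.996 ± 1.06, adjusted p = 0.656). Without IP replicate 2 the Nodal list had 1 gene called, acvr2b (adjusted p = 0.0448), beside 1736 of the 13222 genes then tested.

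Of 24 other transcription factors of the egg and early embryo, relatives of these factors among them, 18 were tested and limma called 0. An unadjusted limma p under 0.05 was found for 3 of the 18, beside 2814 of all 13265 genes tested. Of the 18, edgeR called 0 and DESeq2 1, beside 824 and 1632 of all 13265 genes tested. The median log2 fold change was -0.19. The octamer factor gene pou2f1b had 1535, 3414 and 1513 normalized counts in IP replicates 1, 2 and 3, against 558, 1050 and 980 in input replicates 1, 2 and 3. All IP libraries were above all input libraries, as for 14.6% of all genes tested. The log2 fold change of pou2f1b was 1.26 ± 0.38 (adjusted p = 0.0756), and it was called with the replicate block (adjusted p = 0.0191) and with DESeq2 (0.0149). The gene of the oocyte TATA-binding factor tbpl2 was at 0.87 ± 0.36 (adjusted p = 0.19). Without IP replicate 2, sp1 and tcf7l1a were called lower (adjusted p = 0.0486 and 0.026), beside 1736 of the 13222 genes then tested called in either direction. The paralogs sox19a, sox3 and eomesb were scarce in both groups. There were 0 reads of sox19a in IP and 7 in input, 11 of sox3 in IP and 33 in input, and none of eomesb in any library.

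Of 24 chromatin and elongation cofactors, all were tested, and 2 were higher, 2 lower and 20 not called, beside the 6.32% called among all genes. The median log2 fold change was -0.06. The transcript of the deacetylase gene hdac1 had 34984, 16445 and 17311 normalized counts in IP replicates 1, 2 and 3, against 5402, 6537 and 5220 in input replicates 1, 2 and 3. All IP libraries were above input, as for 14.6% of all genes tested, with a log2 fold change of 1.92 ± 0.34 (limma adjusted p = 0.00926). The cyclin gene ccnt1, of the kinase that releases paused RNA polymerase, had 4169, 4256 and 4892 in IP replicates 1, 2 and 3, against 1254, 1772 and 1519 in input (1.56 ± 0.25, adjusted p = 0.0065). Lower were h2afvb, of the histone variant H2A.Z (-1.28 ± 0.29, adjusted p = 0.0279), and brd2b, of a bromodomain protein that reads acetylated histones (-0.97 ± 0.25, adjusted p = 0.0455). The calls of h2afvb and brd2b were lost without any 1 input library or without IP replicate 1 or 3 (adjusted p of 0.0615 to 0.2), and with no filter beyond 1 read (0.0593 and 0.0806). Those of hdac1 and ccnt1 were lost without input replicate 1 (0.0759 and 0.0597) or input replicate 3 (0.0748 and 0.0539). Without input replicate 2, hdac1 was at an adjusted p of 0.0501. With the replicate number as a block 6 of the 24 were called, 2 higher and 4 lower, beside 1392 of all 13265 genes tested. The lower ones then included h2afva, a second H2A.Z gene (-1.11, adjusted p = 0.038), and brd3a, a relative of brd2b (-1.16, adjusted p = 0.0484), both singled out with their values known. With input replicate 1, 2 or 3 left out, the list had 0, 1 and 0 calls, beside 201, 276 and 203 among all genes. It had 2 without IP replicate 1, beside 333 among all genes. Without IP replicate 2 it had 7, beside 1736 of the 13222 genes then tested.

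The early zygotic genes, targets of genome activation, were mostly under the abundance minimum, and 8 of 22 were tested. The chemokine receptor gene cxcr4b was higher, with 389, 605 and 302 normalized counts in IP replicates 1, 2 and 3, against 97.5, 157 and 179 in input replicates 1, 2 and 3 (1.54 ± 0.38, limma adjusted p = 0.0372). Its groups did not overlap, which in this direction held for 14.6% of all genes tested. The call was lost with input replicate 1, 2 or 3 left out (adjusted p = 0.149, 0.0972 and 0.0849), with IP replicate 1 left out (0.113), with library size scaling (0.0524) and with no filter beyond 1 read (0.0782). The other 7 tested genes were not called. The median of the 8 was 0.18.

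**Figure D5:**
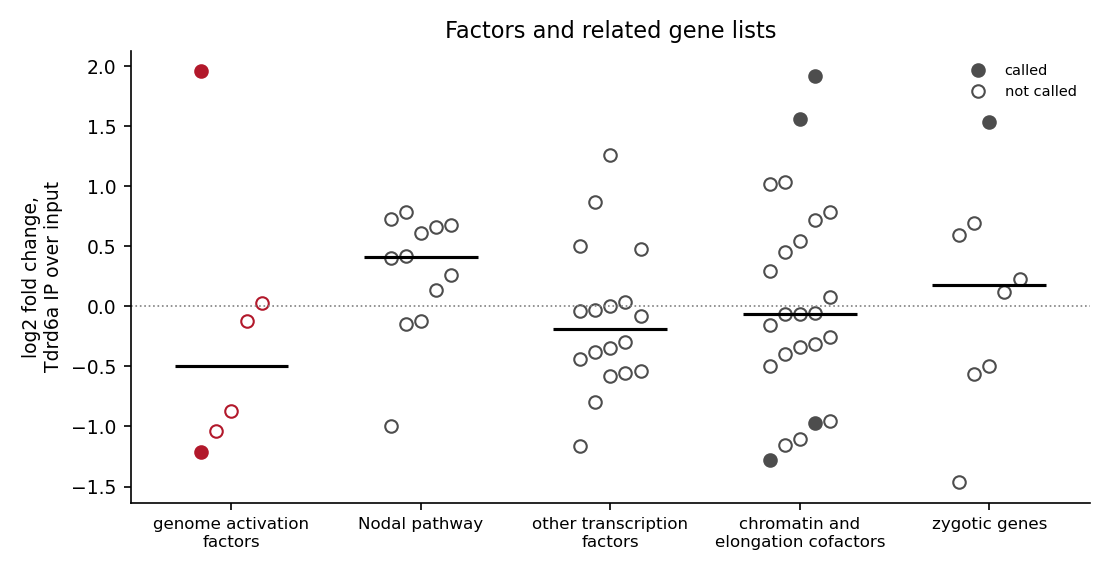
Log2 fold change of Tdrd6a IP over input (vertical axis) for each tested gene of the genome activation factors and of 4 related lists; each circle is a gene, filled where it was called, and bars are list medians. The factors span -1.21 to 1.96 with a median of -0.50, and the list medians are 0.41, -0.19, -0.06 and 0.18 from left to right.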

How the data were processed

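Zebrafish zygote RNA was sequenced from 3 Tdrd6a IP and 3 input libraries. Per the labels, RNA was Trizol-extracted and made into Ovation RNA-seq System V2 libraries for single-end sequencing. TopHat, DESeq and the Zv9 assembly are named in the submitters' processing notes; which counting tool and annotation were used, and whether strand was, is not given in the sources used here. Reads of overlapping antisense genes can then not be told apart. What the authors deposited is a signal per gene: read counts normalized by library and rounded to 1 decimal. In each library the values were multiples of 1 constant, within 0.06 normalized counts. Dividing by it gave whole reads for 100% of the values above 0. On those reads edgeR 4.0.16 called 824 genes.

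The test was limma 3.58.1 in R 4.3.3 (trend, robust, two-sided, Benjamini-Hochberg) on log2(normalized count + 4) for genes with a mean of at least 10; such fold changes understate low genes. Alternatives were library size and TMM scaling, filters, pseudocounts of 1 and 16, edgeR, DESeq2 1.42.0, voom, a replicate block and leaving out each library. Same-numbered libraries deviated together (r = 0.294, 0.305 and 0.301 across genes for replicates 1, 2 and 3), so by these data, and not by the labels, the numbers pair them; the reported fit has no block. No replicates agreed within sampling noise. Ratios used scipy 1.17.1. List symbols were matched by file symbol, by the gene ID table (16425 of 21051 IDs found) or by RefSeq synonyms (GRCz12tu).

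Members and lists were chosen with earlier results of these data known. Named genes were all members, the called genes and the 2 of smallest p of each list, and the 2 nearest patterns per member; other genes were singled out with their values known. A gene that this rule names in the zygotic list is not reported here. Levels were not compared between genes, as transcript lengths were not used here.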

Additional observations from a re-analysis of the deposited data

How the results depend on the processing

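Against 838 genes called (70.5% of them higher in IP), 855 with 55.4% higher were called with library size scaling, 500 with no filter beyond 1 read, 1632 with DESeq2, 1392 with the replicate block, and 201 to 1736 with 1 library left out. Of the factors, 2 were called. This count was 3 with library size scaling, with DESeq2 and with voom, and 1 with no filter beyond 1 read. It was 0 to 4 with 1 library left out, highest without IP replicate 2 and lowest without any 1 input library. The Nodal list had 0 to 1 with 1 library left out, and the other transcription factors had 1 with DESeq2, 1 with the replicate block and 0 to 2 with 1 library left out. The chromatin list had 2 with no filter, 7 with DESeq2 and 0 to 7 with 1 library left out, and the zygotic list had 0 with library size scaling, 0 with no filter and 0 to 1 with 1 library left out. The block changed no call of a factor. The sox19b estimate turned to -0.16 with library size scaling, -0.018 with TMM, -0.0024 with voom, and lay between -0.081 and 0.15 with 1 library left out; that of nanog lay between -0.25 and 0.028 there. The estimates of eomesa, foxh1, pou5f1 and ybx1 kept their sign in all 16 alternatives. The cause of these changes was not tested. Each fit with 1 library left out has fewer samples, and genes called there ranged from 201 without input replicate 1 to 1736 without IP replicate 2. The mxtx2 transcript stayed under the abundance minimum of the reported fit, and whether it was absent or missed for depth was not tested.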
